A study of Capra hircus with 72 samples.

Results

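Transcripts of T cells and other leukocytes were followed through 4 brain regions of the goat, for 10 of the 21343 protein-coding genes in the deposited table. They were taken by gene symbol: CD3D, CD3E, CD4, CD2, CD5, LCK, PTPRC, GPR18, IL20RB and TNFSF15, and all 10 have a row. The genes were chosen by measured values of these same libraries, and which contrast or library led to the choice of each is not recorded. Differences between CO2 conditions are therefore given as a description: the fits of those contrasts are reported with their errors and calls, and nothing is supported with them. The levels across regions in room air are not known to have been used in the choice. Their independence of it is not established, because the room air libraries are also the reference of the CO2 contrasts. A member chosen as higher after CO2 may tend to be low in room air of that region. The calls among regions are therefore to be read with that limit.

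T cells recognise antigen through a receptor whose signal is carried by the CD3 chains. The co-receptor CD4 brings the kinase LCK to that complex, and the phosphatase PTPRC, also known as CD45 and carried by nearly all leukocytes, keeps LCK ready to act. A healthy brain holds few T cells, most of them in the meninges, the choroid plexus and the spaces around vessels, while microglia and macrophages at the brain's borders are its resident leukocytes.

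Libraries came from female goats (Capra hircus) kept for 14 days in room air, in mild chronic hypercapnia (6% CO2 for 14 days) or in moderate chronic hypercapnia (6% CO2 for 7 days, then 8% CO2 for 7 days). Bulk RNA was sequenced from 1 cortical region, the medial prefrontal cortex (mPFC), and from 3 brainstem sites of breathing control: the retrotrapezoid nucleus (RTN), the ventral respiratory column (VRC) and the solitary tract nucleus (NTS). Each region and condition had 6 libraries, 72 in all, and the series gives 6 animals per condition, so that the regions of a condition share animals. The labels do not say which libraries come from 1 animal, whether by equal replicate numbers or otherwise, nor do they name strain or age.

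Library totals ran from 12.84 to 31.88 M counts, M being 1000000, with a median of 19.26 M. Region markers in room air went with the labels: SLC17A7, a glutamate transporter of cortical neurons, averaged 749 ± 180 CPM (counts per 1000000 counts of the library; SD, n = 6) in mPFC, and HOXA4, a hindbrain gene, averaged 0.0337 ± 0.0394 CPM there against 44.3 ± 8.90 in NTS, 34.4 ± 5.79 in VRC and 8.46 ± 3.61 in RTN. CPM values below are scaled by TMM factors over all 72 libraries. In such bulk samples fewer cells of a type and less RNA per cell cannot be told apart. Mild replicate 3 stands apart in VRC, so medians and list counts that rest on it are given with and without it.

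Compared between genes on the length-corrected RPKM scale, the CD3 chain CD3E was the most abundant member in room air, at a mean of 8.49 RPKM over the 4 regions. CD5, a receptor that dampens T cell receptor signals, followed at 3.20 RPKM and PTPRC at 2.78 RPKM. CD3D, another CD3 chain, stood at 2.34 RPKM, LCK at 1.84 RPKM and CD2, an adhesion receptor of T and NK cells, at 1.20 RPKM. GPR18, a G protein-coupled receptor found on lymphocytes and other leukocytes, stood at 0.872 RPKM. TNFSF15, a cytokine of the tumour necrosis factor family, stood at 0.445 RPKM, CD4 at 0.389 RPKM and IL20RB, a receptor chain for cytokines of the interleukin-20 group, at 0.0880 RPKM. This order rests on deposited gene lengths of 504 (CD3D) to 6841 bases (LCK), and deposited spans were shorter than the length for 89.7% of genes. In CPM, which is not corrected for length, the room air means of LCK and PTPRC lay above that of CD3E in each region. Neighbours in the RPKM order did not differ beyond their spread in every region. In mPFC, PTPRC held 3.43 ± 1.92 RPKM and CD5 3.11 ± 1.42 (SD, n = 6), and TNFSF15 held 0.720 ± 0.424 RPKM and CD4 0.558 ± 0.212, whereas in VRC CD5 (3.55 ± 0.790) lay above PTPRC (2.16 ± 0.586). The counts behind these levels were small. In VRC room air, CD3D had 1 to 11 counts per library, IL20RB 5 to 12, CD2 0 to 25 and TNFSF15 0 to 25, against 85 to 236 for PTPRC. A member had no count in 6 pairs of gene and library, where 3 counts, the limit that a count of 0 allows, would be 0.134 to 0.216 CPM, covering counting error only.

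In room air, 4 members differed among the regions when the libraries were taken as independent, and 7 with the replicate number as a block. The edgeR quasi-likelihood F-test over the 24 room air libraries, with Benjamini-Hochberg adjustment over 15700 genes, called CD3D (adjusted p = 0.000841), LCK (adjusted p = 0.00163), GPR18 (adjusted p = 0.00507) and TNFSF15 (adjusted p = 0.0135). That is 4 of 10 members, where 69.2% of all genes tested passed. The test did not call CD3E (adjusted p = 0.298), CD4 (0.101), PTPRC (0.114), CD2 (0.0722), CD5 (0.672) or IL20RB (0.255). With the block, CD3E (adjusted p = 0.00636, edgeR), CD4 (0.00781) and PTPRC (0.0343) were called as well, and 75.2% of all genes. Libraries of 1 number in different regions of room air deviated together, with a correlation over 0.1 in 33 of 36 pairs (median 0.27), but the fit without the block treats libraries that share animals as independent.

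CD3D was highest in mPFC, at 2.23 ± 1.23 CPM (SD, n = 6), followed by NTS at 1.36 ± 1.30, RTN at 0.627 ± 0.181 and VRC at 0.389 ± 0.226. The mPFC libraries ran from 0.986 to 3.73 CPM and the VRC libraries from 0.0528 to 0.647. VRC was lower than mPFC by a log2 fold change of -2.55 ± 0.55 (SE; adjusted p = 0.000322, edgeR) and lower than NTS by -1.83 ± 0.55 (adjusted p = 0.0125). RTN was lower than mPFC by -1.80 ± 0.52 (adjusted p = 0.00500).

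LCK was highest in NTS, at 16.2 ± 3.62 CPM, and lowest in VRC, at 10.003 ± 2.42 CPM, with RTN at 10.7 ± 0.925 and mPFC at 12.97 ± 2.13. Against NTS the log2 fold change was -0.72 ± 0.16 in VRC (adjusted p = 0.00136, edgeR) and -0.57 ± 0.16 in RTN (adjusted p = 0.0120). It was -0.41 ± 0.16 in VRC against mPFC (adjusted p = 0.0299).

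GPR18 was highest in VRC, at 1.63 ± 0.319 CPM, and lowest in mPFC, at 0.478 ± 0.318 CPM. NTS held 0.772 ± 0.509 CPM and RTN 0.762 ± 0.204 CPM. The VRC libraries ran from 1.01 to 1.88 CPM and the mPFC libraries from 0.0519 to 0.990 CPM. VRC exceeded mPFC by a log2 fold change of 1.73 ± 0.42 (adjusted p = 0.00115, edgeR) and NTS by 1.06 ± 0.40 (adjusted p = 0.0461).

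TNFSF15 was scarce in RTN, where the 6 room air libraries held 0 to 3 counts (0.0707 ± 0.0700 CPM), against 0.644 ± 0.370 CPM in mPFC, 0.514 ± 0.448 in NTS and 0.421 ± 0.473 in VRC. RTN was lower than mPFC by a fitted log2 fold change of -3.10 ± 0.82 (adjusted p = 0.00252, edgeR) and lower than NTS by -2.72 ± 0.83 (adjusted p = 0.0208). CD4 and CD2, which the F-test over 4 regions did not call, each had 1 pair past the threshold. CD4 was lower in VRC than in mPFC (-1.29 ± 0.51, adjusted p = 0.0327), and CD2 lower in RTN than in mPFC (-2.002 ± 0.79, adjusted p = 0.0357).

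By pair of regions, 0 of 10 members were called for NTS against mPFC (48.3% of all genes), 4 for VRC against mPFC (60.3%), 3 for RTN against mPFC (54.8%), 3 for VRC against NTS (33%), 2 for RTN against NTS (21.6%) and 0 for RTN against VRC (14.7%). With the block these counts were 0 (53.7% of genes), 5 (64.2%), 6 (59.6%), 4 (40.1%), 2 (28.1%) and 2 (21.7%). The 2 then called for RTN against VRC were GPR18 (-1.08 ± 0.33, adjusted p = 0.0224, edgeR) and TNFSF15 (-2.36 ± 0.68, adjusted p = 0.0178).

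In VRC after mild hypercapnia, CD3D, CD3E, CD4, CD2, CD5, LCK and PTPRC had higher means, and a few libraries, replicate 3 above all, held most of the excess. CD3D was 0.389 ± 0.226 CPM in room air and 2.56 ± 3.00 CPM in mild hypercapnia (SD, n = 6). Replicate by replicate from 1 to 6, the mild libraries held 0.142, 1.13, 8.35, 2.26, 2.77 and 0.699 CPM, so that replicates 2 to 6 lay above the highest room air library (0.647 CPM) and replicate 1 did not. The log2 fold change was 2.77 ± 0.78 (SE), and 1.86 ± 0.70 without replicate 3.

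CD4 showed the same library even more strongly. The 6 room air libraries ran from 0.497 to 2.37 CPM, whereas the mild libraries 1 to 6 held 0.497, 1.55, 17.7, 3.24, 4.19 and 1.67 CPM. Only replicates 3, 4 and 5 of the mild group exceeded every room air library. The log2 fold change was 2.29 ± 0.64, and 1.14 ± 0.48 without replicate 3.

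CD2 held 0 to 1.80 CPM in room air and 0.852, 1.27, 11.9, 1.20, 3.43 and 0.323 CPM in mild replicates 1 to 6. Its log2 fold change was 2.11 ± 0.75, and 0.91 ± 0.63 without replicate 3. CD3E, the more abundant CD3 chain among the members, held 3.06 to 6.67 CPM in room air and 4.12, 2.82, 20.5, 4.93, 13.8 and 7.37 CPM in mild replicates 1 to 6. Replicates 3 and 5 stood apart here too, and the log2 fold change of 1.00 ± 0.40 became 0.54 ± 0.35 without replicate 3.

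PTPRC ran from 4.64 to 10.8 CPM in room air and from 6.92 to 40.1 CPM in mild hypercapnia, with replicate 3 highest and replicate 5 next at 21.3 CPM. Its log2 fold change was 0.97 ± 0.35, and 0.47 ± 0.27 without replicate 3. LCK ran from 6.24 to 12.98 CPM in room air and from 6.99 to 25.9 CPM in mild hypercapnia, and its log2 fold change of 0.43 ± 0.27 was 0.10 ± 0.22 without replicate 3. CD5 ran from 5.78 to 10.9 CPM in room air and from 8.25 to 23.7 CPM in mild hypercapnia, where replicate 2 (20.1 CPM) was nearly as high as replicate 3. Its log2 fold change was 0.66 ± 0.26, and 0.43 ± 0.24 without replicate 3. Mild replicate 3 was thus the highest VRC mild library for all 7 of these genes.

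**Figure D1:**
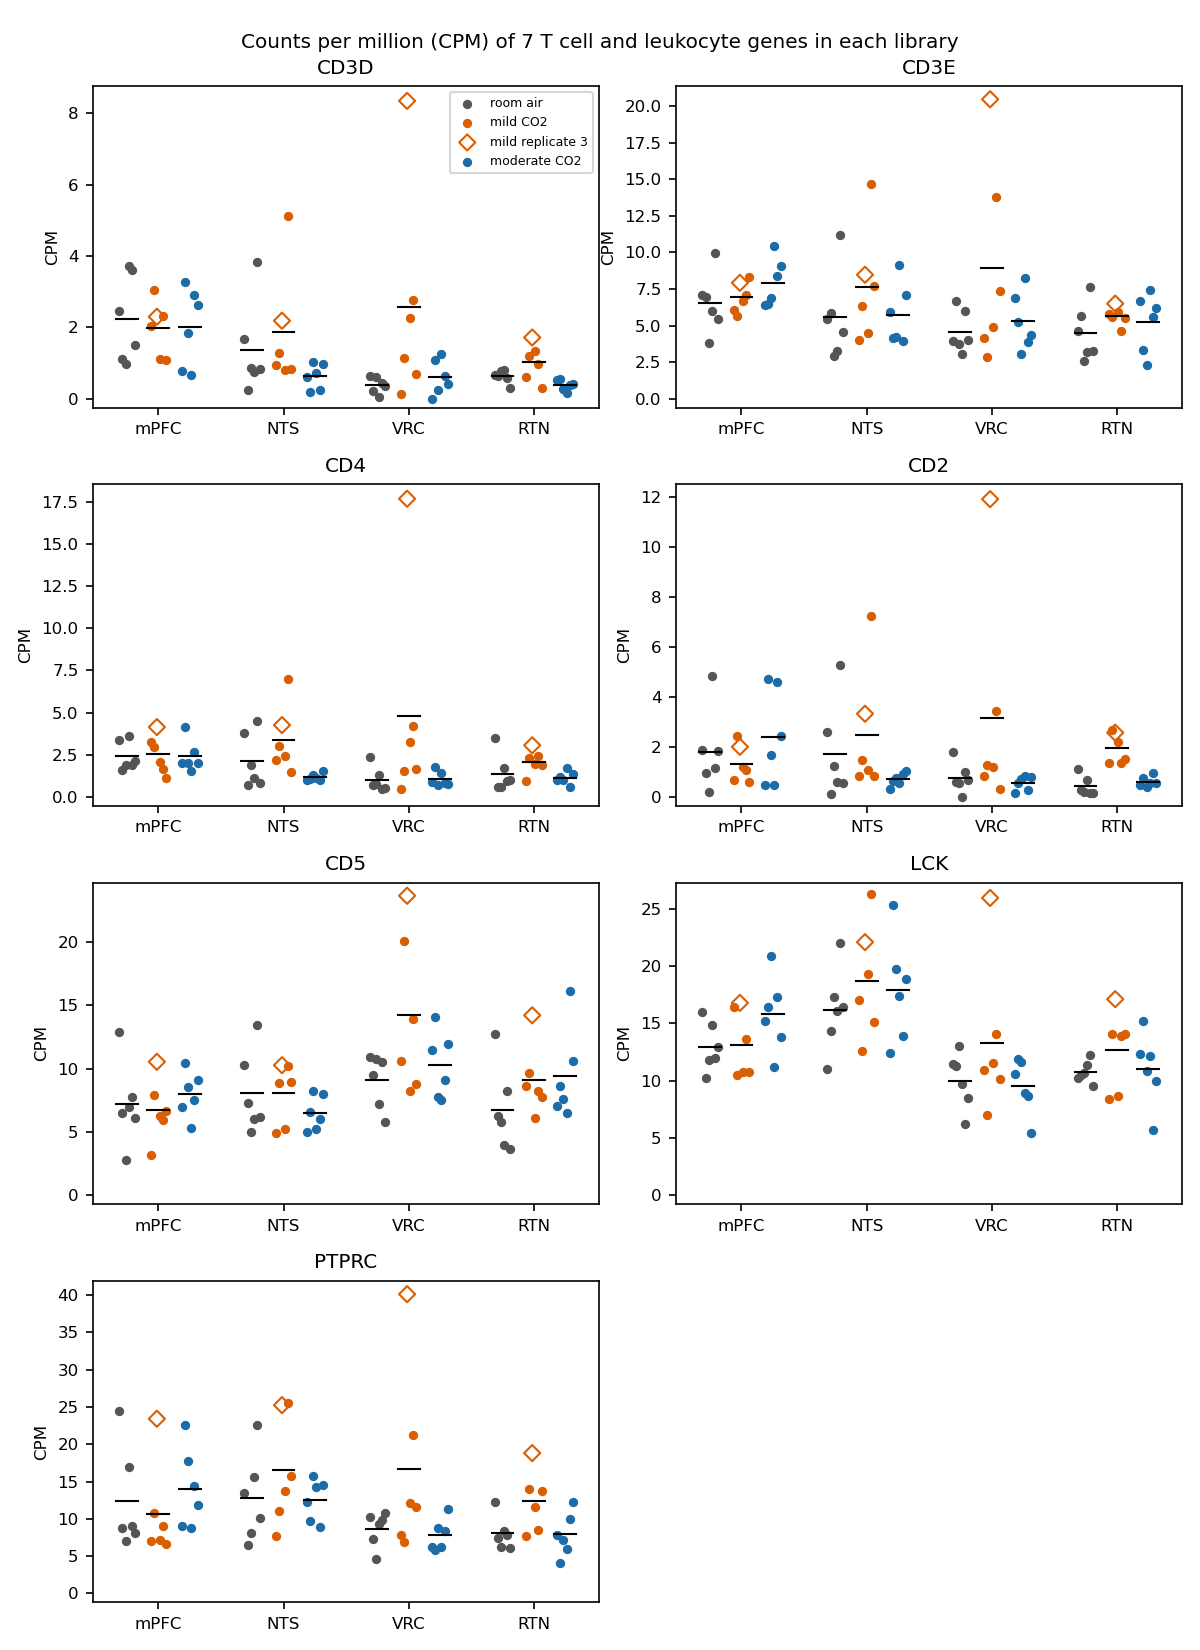
Level of 7 T cell and leukocyte genes in each library (vertical axis, CPM on a linear scale) by region, with room air in grey, mild hypercapnia in orange and moderate hypercapnia in blue; black bars are group means of 6 libraries and the open diamond is mild replicate 3. In VRC the diamond lies above every other library of the region for all 7 genes, for example at 17.7 CPM of CD4.

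GPR18 and IL20RB peaked in other VRC mild libraries, and TNFSF15 in replicate 3. GPR18 held 1.01 to 1.88 CPM in room air and 14.3, 14.5, 6.04, 4.23, 1.41 and 1.56 CPM in mild replicates 1 to 6. Replicates 1 and 2, the highest for GPR18, lay within the room air range for CD4 (0.497 and 1.55 CPM), and replicate 5, second highest for CD4, was the lowest of the mild group for GPR18. The log2 fold change of GPR18 was 2.10 ± 0.51, and 2.12 ± 0.53 without replicate 3.

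IL20RB had the largest fitted difference of the 10. Room air libraries held 0.276 to 0.655 CPM, and mild replicates 1 to 6 held 7.74, 10.5, 2.45, 15.2, 17.4 and 1.18 CPM. Every mild library lay above every room air library, and replicate 3 was among the lower ones. The log2 fold change was 4.40 ± 0.94, and 4.60 ± 0.94 without replicate 3. TNFSF15 held 0 to 1.32 CPM in room air and 0.847 to 2.36 CPM in mild hypercapnia, with replicate 3 highest. Its log2 fold change was 1.69 ± 0.60, and 1.42 ± 0.62 without replicate 3.

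**Figure D2:**
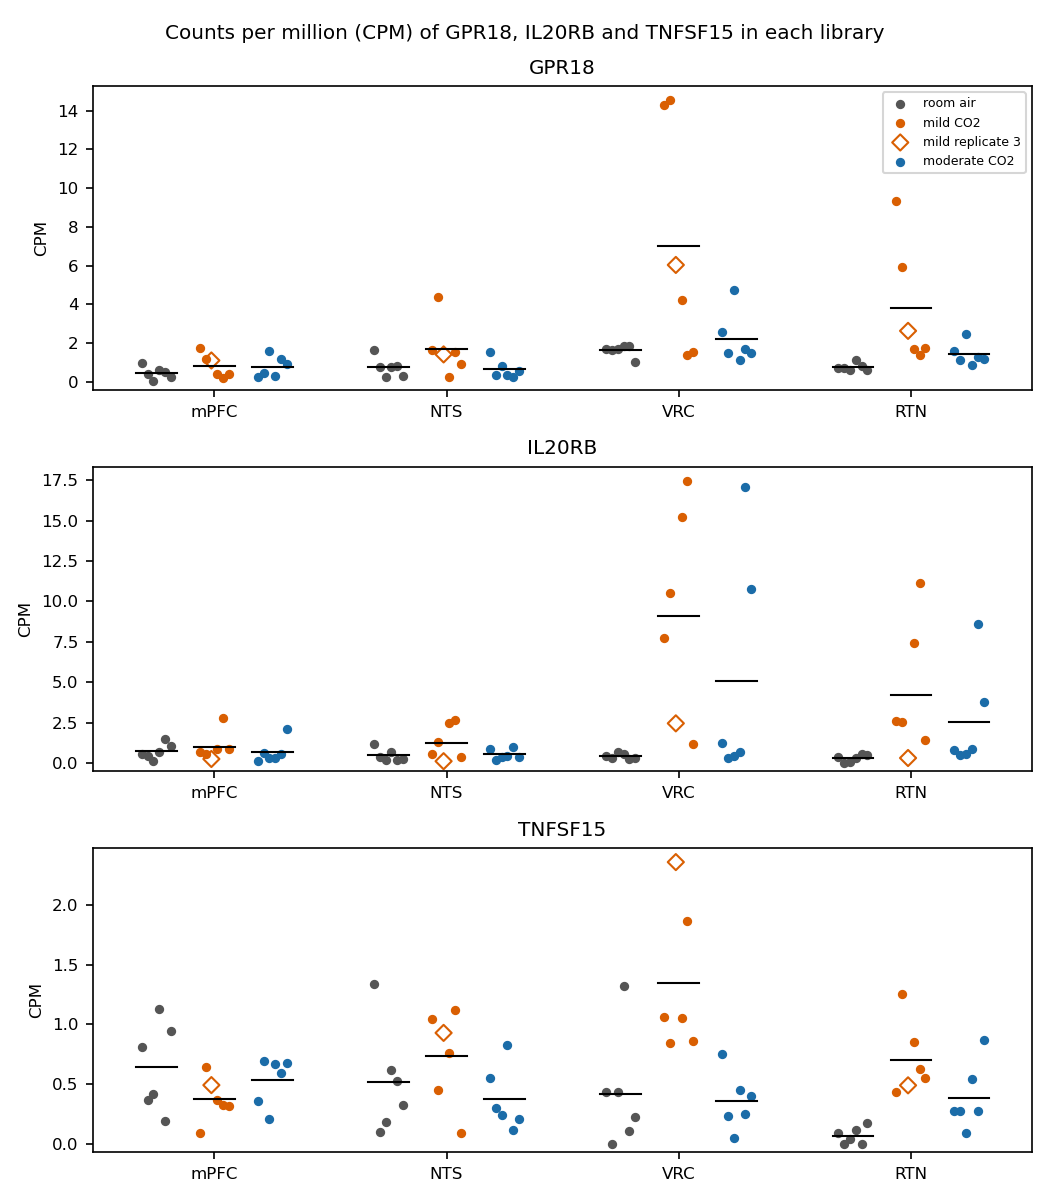
Level of GPR18, IL20RB and TNFSF15 in each library (vertical axis, CPM on a linear scale) by region, drawn as groups of 6 libraries with a black bar at the mean; the open diamond is mild replicate 3. GPR18 and IL20RB are highest in VRC and RTN mild libraries other than replicate 3, and IL20RB is also high in moderate replicates 5 and 6 of VRC (17.1 and 10.8 CPM).

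Counted together, all 10 members had a positive fitted log2 fold change in VRC after mild hypercapnia, with a median of 1.89, against 0.01 over all genes tested. Without mild replicate 3 the median was 1.02, with 10 of 10 still positive. The edgeR quasi-likelihood test called 0 of 10 at an adjusted p under 0.05, as it called 0% of all genes. DESeq2 called 2, GPR18 and IL20RB, but the share of all genes called by that fit is not given here. At an unadjusted p under 0.05 there were 9 members, all higher, against 6.23% of genes, and 5 members without mild replicate 3, against 4.58%. Since the members were chosen on these libraries, nothing is read from that share. One member of 10, IL20RB, had every mild library above every room air library, against 0.157% of genes.

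With all libraries, the fitted differences of CD3D, CD3E, CD4, LCK, PTPRC and CD5 were smaller in RTN than in VRC. The interaction fit given below did not establish that. Some other members had groups that did not overlap, by narrow margins for CD2 and GPR18. CD2 held 1.12, 0.288, 0.213, 0.686, 0.179 and 0.178 CPM in room air replicates 1 to 6 and 1.35, 2.67, 2.57, 2.19, 1.35 and 1.51 CPM in the mild ones. The groups did not overlap, and mild replicate 3 was not the highest. The log2 fold change was 2.10 ± 0.41 (SE), and 2.00 ± 0.43 without mild replicate 3.

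GPR18 held 0.592 to 1.14 CPM in RTN room air and 9.35, 5.92, 2.64, 1.70, 1.40 and 1.77 CPM in mild replicates 1 to 6. These groups did not overlap either, and replicates 1 and 2 were again the highest. The log2 fold change was 2.30 ± 0.44, and 2.38 ± 0.46 without replicate 3. IL20RB held 0 to 0.536 CPM in room air and 2.58, 2.52, 0.306, 7.41, 11.1 and 1.41 CPM in mild replicates 1 to 6, with replicate 3 inside the room air range. Its log2 fold change was 3.80 ± 0.90, and 4.04 ± 0.84 without replicate 3.

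TNFSF15 fell below the filter on low counts in RTN and was not fitted there with all libraries. Its room air libraries held 2, 0, 1, 2, 0 and 3 counts and its mild libraries 7, 24, 8, 14, 13 and 11 counts, or 0 to 0.178 CPM against 0.431 to 1.26 CPM, without overlap. When mild replicate 3 was left out, TNFSF15 passed the filter and its fitted log2 fold change was 3.31 ± 0.62. With 0 to 3 counts per room air library, it could reach the minimum count of 10 only in CO2 libraries. The filter thus favoured a positive value, and nothing is read from that fit.

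Mild hypercapnia in RTN went with log2 fold changes of 0.69 ± 0.37 for CD3D, 0.33 ± 0.27 for CD3E, 0.58 ± 0.39 for CD4 and 0.24 ± 0.20 for LCK. CD5 gave 0.43 ± 0.29 and PTPRC 0.62 ± 0.25, the latter from 6.04 to 12.3 CPM in room air and 7.75 to 18.8 CPM in mild hypercapnia. Mild replicate 3 was highest for 6 of these 7 genes, CD2 being the exception. The median over the 9 members tested was 0.62, all 9 positive, against a median of 0.00 over all genes. Without mild replicate 3 it was 0.47 over 10 members, TNFSF15 included.

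The edgeR test called 0 of 9 members in RTN after mild hypercapnia, and 0% of all genes. DESeq2 called 3, CD2, GPR18 and IL20RB, and edgeR without room air replicate 1 called CD2. The shares of all genes called by those other fits are not given here, so nothing is read from these calls. At an unadjusted p under 0.05 there were 4 members, all higher (6.59% of genes), and 4 of 10 without mild replicate 3 (6.14%), TNFSF15 then being among them and PTPRC not. TNFSF15 entered that count only by passing the filter through its CO2 libraries. Of the 9 tested members 2, CD2 and GPR18, had non-overlapping groups, against 0.182% of genes.

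**Figure D3:**
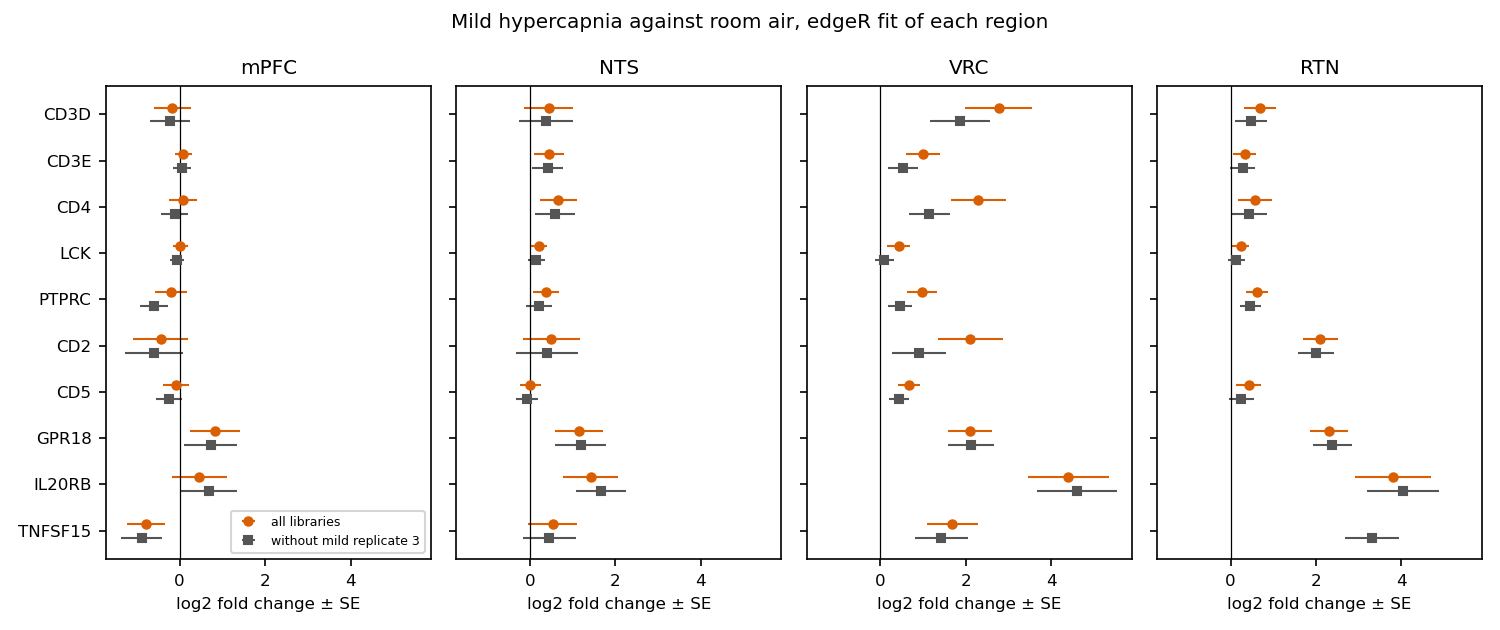
Fitted log2 fold change of each gene in mild hypercapnia against room air (horizontal axis; bars are standard errors) in the 4 regions, with all libraries (orange circles) and without mild replicate 3 (grey squares). The points of VRC move toward 0 for the CD genes, LCK and PTPRC when replicate 3 is left out, while those of GPR18 (2.10 and 2.12) and IL20RB (4.40 and 4.60) do not; TNFSF15 in RTN has no orange point because it failed the filter on low counts.

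The libraries in which GPR18 and IL20RB were high carried the same numbers in VRC and RTN. For GPR18, mild replicates 1, 2 and 3 were the 3 highest of the mild group in both regions. For IL20RB, mild replicates 5 and 4 were the 2 highest in both, and moderate replicates 5 and 6 were the 2 highest of the moderate group in both. The mPFC and NTS shared part of this order: mild replicate 5 was highest for IL20RB in mPFC (2.80 CPM) and in NTS (2.65 CPM), and mild replicate 2 was highest for GPR18 in NTS (4.40 CPM).

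**Figure D4:**
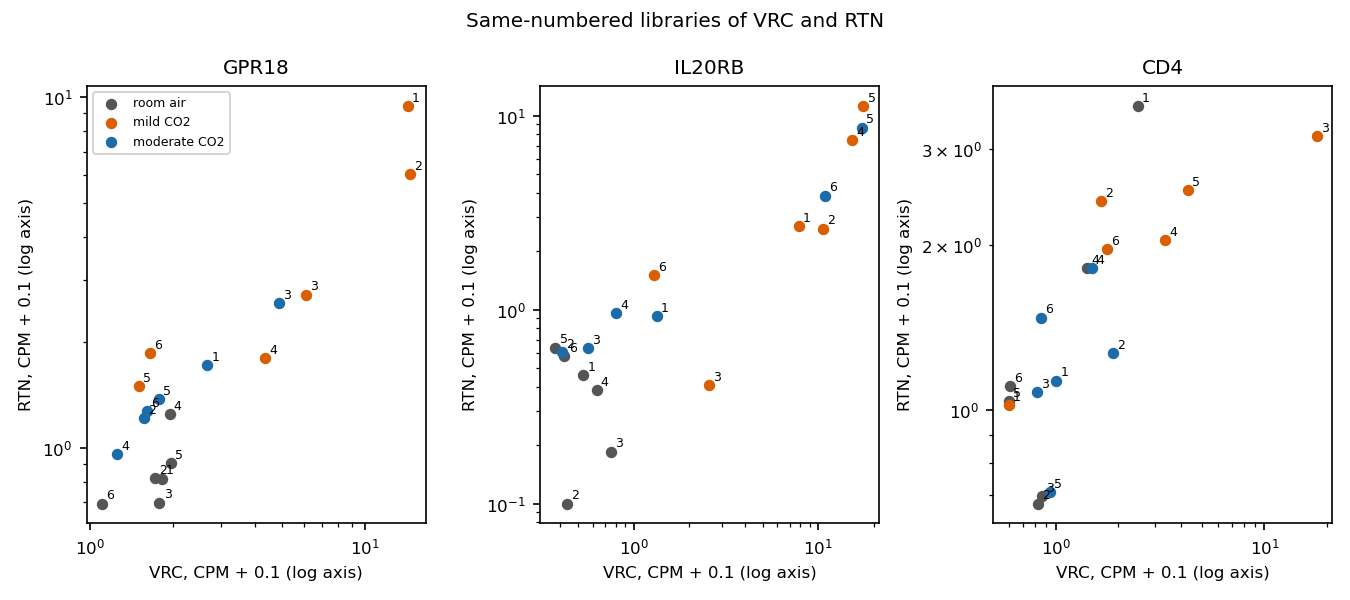
CPM of GPR18, IL20RB and CD4 in VRC (horizontal) against RTN (vertical) for libraries with the same replicate number and condition, each axis logarithmic after adding 0.1; numbers beside the points are replicate numbers. Mild replicates 1 and 2 lie at the upper right for GPR18, mild and moderate replicate 5 for IL20RB, and mild replicate 3 at the far right for CD4.

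In NTS after mild hypercapnia the differences were small beside the spread. The largest were those of IL20RB, 0.473 ± 0.403 CPM in room air and 1.24 ± 1.10 CPM in mild hypercapnia (SD, n = 6; log2 fold change 1.42 ± 0.64, SE), and GPR18, 0.772 ± 0.509 and 1.70 ± 1.42 CPM (1.14 ± 0.56). CD4 went from 2.15 ± 1.62 to 3.40 ± 1.99 CPM, CD2 from 1.73 ± 1.95 to 2.47 ± 2.52, CD3D from 1.36 ± 1.30 to 1.86 ± 1.68 and CD3E from 5.56 ± 3.01 to 7.61 ± 3.86. PTPRC went from 12.7 ± 5.86 to 16.5 ± 7.40 CPM, LCK from 16.2 ± 3.62 to 18.7 ± 4.93, CD5 from 8.04 ± 3.23 to 8.08 ± 2.41 and TNFSF15 from 0.514 ± 0.448 to 0.733 ± 0.395.

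The high NTS libraries were replicate 5 of both groups. Room air replicate 5 was highest for 7 of the 7 genes from CD3D to CD5 and mild replicate 5 for 6 of 7, with 3.83 and 5.12 CPM of CD3D. The median log2 fold change was 0.47 (10 of 10 positive), and 0.41 without mild replicate 3 (9 of 10). The edgeR test called 0 of 10 members and 0% of genes, and 1 member, IL20RB, had an unadjusted p under 0.05 (4.66% of genes), as it had without mild replicate 3 (3.84%). No member had non-overlapping groups (0.0389% of genes).

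In mPFC the same 10 genes showed no common direction after mild hypercapnia, 5 being positive and 5 negative with a median log2 fold change of -0.03. Values ran from -0.79 ± 0.45 for TNFSF15 (0.644 ± 0.370 CPM in room air, 0.372 ± 0.185 in mild hypercapnia) to 0.83 ± 0.59 for GPR18 (0.478 ± 0.318 and 0.842 ± 0.589). CD3D held 2.23 ± 1.23 and 1.98 ± 0.765 CPM, CD3E 6.54 ± 2.05 and 6.96 ± 1.04, CD4 2.41 ± 0.872 and 2.54 ± 1.12, and CD2 1.82 ± 1.61 and 1.33 ± 0.748. LCK held 12.97 ± 2.13 and 13.1 ± 2.92 CPM, PTPRC 12.4 ± 6.91 and 10.7 ± 6.45, CD5 7.18 ± 3.30 and 6.76 ± 2.44, and IL20RB 0.716 ± 0.487 and 0.996 ± 0.916. The edgeR test called 0 of 10 members and 0% of genes, 0 members had an unadjusted p under 0.05 (3.45% of genes), and no member had non-overlapping groups (0.0584% of genes). Without mild replicate 3, which held 23.4 CPM of PTPRC, the median was -0.17, and again 0 members had an unadjusted p under 0.05 (3.79% of genes).

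After moderate hypercapnia, IL20RB in VRC and RTN and TNFSF15 in RTN lay furthest above room air, and no member was called. In VRC, CD4 held 1.07 ± 0.427 CPM (room air 1.03 ± 0.722), CD3D 0.606 ± 0.485 (0.389 ± 0.226), CD3E 5.28 ± 1.97 (4.57 ± 1.43) and CD2 0.562 ± 0.283 (0.773 ± 0.596). LCK held 9.50 ± 2.40 CPM (10.003 ± 2.42), PTPRC 7.79 ± 2.11 (8.70 ± 2.33), CD5 10.3 ± 2.60 (9.11 ± 2.14), GPR18 2.19 ± 1.35 (1.63 ± 0.319) and TNFSF15 0.355 ± 0.239 (0.421 ± 0.473). IL20RB held 1.23, 0.309, 0.461, 0.701, 17.1 and 10.8 CPM in moderate replicates 1 to 6. Replicates 5 and 6 were the high ones, replicates 2 and 3 lay within the room air range, and the log2 fold change was 3.59 ± 0.93.

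The same 2 libraries stood out in RTN, where IL20RB held 0.826, 0.502, 0.533, 0.858, 8.57 and 3.77 CPM in moderate replicates 1 to 6 (log2 fold change 3.05 ± 0.90). GPR18 held 1.42 ± 0.578 CPM there (room air 0.762 ± 0.204; 0.91 ± 0.44), CD2 0.618 ± 0.203 (0.444 ± 0.383) and CD3D 0.382 ± 0.151 (0.627 ± 0.181). CD3E held 5.26 ± 2.01 CPM (4.50 ± 1.90), CD4 1.15 ± 0.376 (1.39 ± 1.11), LCK 11.02 ± 3.18 (10.7 ± 0.925), PTPRC 7.91 ± 2.90 (8.04 ± 2.28) and CD5 9.42 ± 3.60 (6.76 ± 3.35). TNFSF15 held 8, 5, 2, 7, 5 and 17 counts in moderate replicates 1 to 6, or 0.388 ± 0.276 CPM (0.0707 ± 0.0700). All but replicate 3 lay above the highest room air library. With mild replicate 3 left out, when it passed the filter through its CO2 libraries only, its fitted log2 fold change was 2.35 ± 0.64, which edgeR did not call (adjusted p = 0.461).

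In NTS the moderate libraries had a narrower range than the room air libraries for CD4, CD2 and CD3D, at lower means, and no member was called. CD4 ran from 0.986 to 1.54 CPM, against 0.698 to 4.48 in room air (log2 fold change -0.86 ± 0.45). CD2 ran from 0.308 to 1.05 CPM, against 0.0997 to 5.29 (-1.28 ± 0.72), and CD3D from 0.198 to 1.02 CPM, against 0.233 to 3.83 (-1.13 ± 0.62). LCK, CD3E and IL20RB had means slightly above those of room air. The 7 members other than CD4, CD2 and CD3D lay between -0.39 ± 0.61 (TNFSF15) and 0.19 ± 0.67 (IL20RB). CD3E held 5.74 ± 2.07 CPM, LCK 17.9 ± 4.61, PTPRC 12.6 ± 2.77, CD5 6.51 ± 1.37, GPR18 0.647 ± 0.487, IL20RB 0.530 ± 0.319 and TNFSF15 0.375 ± 0.268 (SD, n = 6). In mPFC the 10 values lay between -0.24 ± 0.44 (TNFSF15) and 0.74 ± 0.60 (GPR18). Levels there were 2.01 ± 1.10 CPM for CD3D, 7.94 ± 1.63 for CD3E, 2.42 ± 0.929 for CD4, 2.40 ± 1.91 for CD2, 7.99 ± 1.81 for CD5, 15.8 ± 3.26 for LCK and 14.1 ± 5.35 for PTPRC. GPR18 held 0.793 ± 0.548 CPM, IL20RB 0.660 ± 0.731 and TNFSF15 0.534 ± 0.202.

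Against room air, moderate hypercapnia gave member medians of 0.19 in mPFC, -0.28 in NTS, 0.13 in VRC and 0.22 in RTN. The edgeR test called 0 members in any region, against 0% of genes in mPFC, VRC and RTN and 0.00649% in NTS. At an unadjusted p under 0.05 there was 1 member in VRC (5.67% of genes) and 1 in RTN (7.38%), IL20RB in both, with 0 in NTS (13.4%) and 0 in mPFC (2.1%). Without mild replicate 3, TNFSF15 was tested in RTN and made 2 there (7.75%). It passed the filter there only through CO2 libraries, so nothing is read from its place in that count. These contrasts share their room air libraries with those of mild hypercapnia.

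Moderate against mild hypercapnia, which shares the mild libraries, gave negative values for 10 of 10 members in VRC (median -1.39), 8 of 9 in RTN (-0.75) and 10 of 10 in NTS (-1.08), and 3 of 10 in mPFC (median 0.23). Without mild replicate 3 the medians were -1.05, -0.85, -1.15 and 0.31. In NTS, CD4 differed by -1.53 ± 0.45, CD2 by -1.78 ± 0.72, CD3D by -1.57 ± 0.62 and GPR18 by -1.40 ± 0.58. In VRC, CD2 differed by -2.52 ± 0.77, CD4 by -2.23 ± 0.64, CD3D by -2.13 ± 0.74 and TNFSF15 by -1.92 ± 0.61.

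The edgeR test called 0 members and 0% of genes in each of these 4 contrasts. DESeq2 called CD4, CD2 and GPR18 in VRC, where its share of all genes is not given here. Unadjusted p-values under 0.05 were found for 6 members in VRC (15.5% of genes), 5 in RTN (10.6%), 4 in NTS (4.02%) and 0 in mPFC (4.71%), all lower in moderate hypercapnia. With mild replicate 3 left out there were 4 in VRC (12.8%), 3 in RTN (10.5%) and 5 in NTS (3.47%), all lower, and 2 in mPFC (6.78%), LCK and PTPRC, both higher.

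Whether the response differed among the 4 regions was fitted over all 72 libraries. The region by CO2 interaction called 0 members and 0% of 16372 genes, for mild and for moderate hypercapnia alike, with an adjusted p of 1 for each member (edgeR). At an unadjusted p under 0.05, the mild interaction held CD3D, CD4, CD2, IL20RB and TNFSF15 (2.4% of genes) and the moderate interaction IL20RB and TNFSF15 (3.83% of genes). Without mild replicate 3, IL20RB (unadjusted p = 0.00281, edgeR) and TNFSF15 (0.000436) remained in the mild interaction. CD3D (unadjusted p = 0.103, edgeR), CD4 (0.262) and CD2 (0.0666) did not, and the share of all genes was not counted there. The differences in size between regions given above were thus not established by that test.

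Members differed in the libraries in which they were high. Over the 72 libraries, with log2 CPM centred on the mean of each region and condition, the 21 pairs among CD3D, CD3E, CD4, LCK, PTPRC, CD2 and CD5 had a median Pearson r of 0.467 (0.148 to 0.812), and 0.378 over the 68 libraries without mild replicate 3. TNFSF15 had a median r of 0.297 with those 7, GPR18 of 0.035 and IL20RB of 0.001. Leaving out mild replicate 3 gave 0.235, -0.006 and 0.223, so that the low value of IL20RB rests on that replicate.

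The regions differed too. Among the 7 genes the median r was 0.502 in mPFC, 0.662 in NTS, 0.585 in VRC and 0.253 in RTN, each over 18 libraries. That of GPR18 with the 7 was 0.536 in mPFC, as high as among the 7 themselves, 0.24 in NTS, -0.272 in VRC and -0.049 in RTN. The 7 were not alike in every pair either. Over the 68 libraries without mild replicate 3 the lowest pair was LCK with CD5 (r = -0.032), and CD3E with LCK had 0.098. In RTN, LCK had an r of -0.048 with CD3E, -0.08 with PTPRC, -0.027 with CD2 and -0.112 with CD5, against 0.427 with CD4 and 0.178 with CD3D. The values share library and depth and are a description only.

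**Figure D5:**
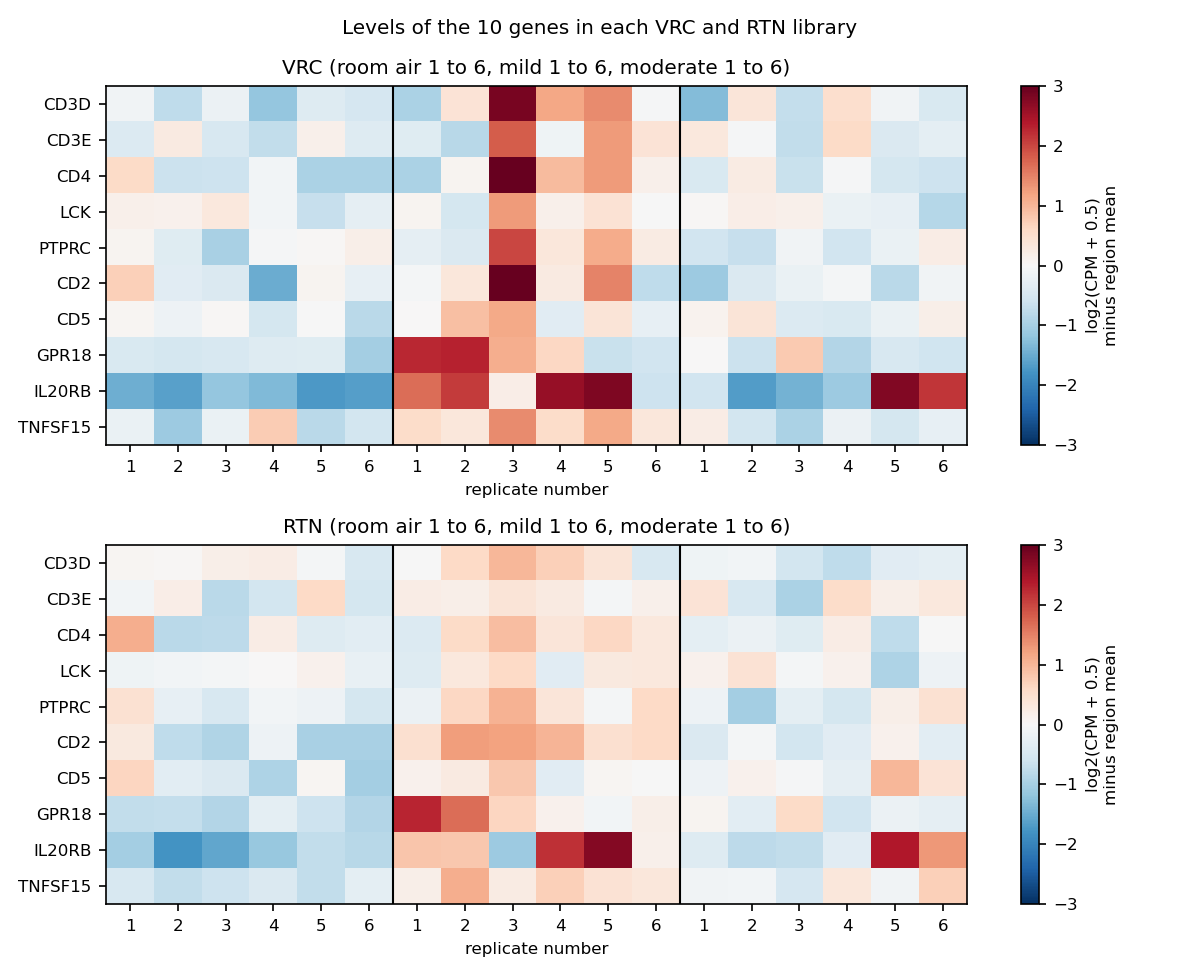
Level of the 10 genes in the 18 VRC and 18 RTN libraries as log2(CPM + 0.5) minus the gene's mean in that region (colour, red above and blue below the mean), with black lines between room air, mild and moderate libraries. In VRC the column of mild replicate 3 is red for CD3D through CD5, whereas the strongest cells of GPR18 are mild replicates 1 and 2 and those of IL20RB are mild replicates 4 and 5 and moderate replicate 5.

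Of 12565 other genes with a symbol and a mean of at least 0.5 CPM, the one most like the mean of 9 members over the 72 libraries was CD3G (r = 0.878), a CD3 chain outside the members. Next came RAC2 (0.829), a GTPase of blood cells, PSMB8 (0.828), an immunoproteasome subunit, SIT1 (0.827), an adaptor of T cells, and CXCR6 (0.822), a chemokine receptor. GBP2 (0.813), CXCR3 (0.812), NKG7 (0.81), FYB1 (0.806) and LAT (0.805) completed the 10. Without mild replicate 3, CD3G remained first (0.86) and CTSW took the place of LAT. In VRC, CD3G held 0.275 to 1.58 CPM in room air and 9.29 CPM in mild replicate 3, against 0.484 to 4.34 in the other mild libraries.

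Other T cell lists had mostly positive values in VRC after mild hypercapnia, with medians that were lower without mild replicate 3. Of 9 further genes of the receptor complex and co-receptors with a row, 4 were tested in VRC, and all 4 were positive after mild hypercapnia (median log2 fold change 0.73). Of the 4, 0 were called (0% of all genes) and 1 had an unadjusted p under 0.05 (6.23% of genes). CD247, the zeta chain, differed by 0.21 ± 0.19 and CD8A by 0.49 ± 0.38. Of the T cell receptor signalling genes, 7 of 10 were positive (median 0.59), with FYN, a kinase also of neurons and glia, at -0.13 ± 0.10 and RASGRP1 at -0.13 ± 0.34. Of 14 genes of T cell transcription, cytokine receptors and homing, 10 were positive (median 0.32), with S1PR1 at -0.34 ± 0.17 and LEF1 at 0.34 ± 0.22. The 4 cytotoxic lymphocyte genes tested were all positive (median 1.33), with CTSW at 1.49 ± 0.45 and NKG7 at 1.17 ± 0.48. The medians of these 4 lists without mild replicate 3 were 0.27 (4 of 4 positive), 0.31 (7 of 10), 0.10 (8 of 14) and 0.65 (4 of 4). CTSW then stood at 0.88 ± 0.38 and NKG7 at 0.43 ± 0.38.

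Antigen presentation genes, whose products show peptides to T cells, were positive after mild and negative after moderate hypercapnia in VRC and RTN, whereas the member medians there were positive in both contrasts. In VRC 13 of 13 were positive after mild hypercapnia (median 0.76). Of these, 0 were called (0% of all genes) and 6 had an unadjusted p under 0.05 (6.23% of genes). After moderate hypercapnia 13 of 13 were negative (median -0.45). CD74, the chaperone of class II molecules, differed by 0.76 ± 0.42 in the mild contrast and HLA-DRA, a class II chain, by 1.23 ± 0.39. The mild median without mild replicate 3 was 0.26 (12 of 13 positive, 1 at an unadjusted p under 0.05, against 4.58% of genes). CD74 then differed by 0.07 ± 0.30 and HLA-DRA by 0.74 ± 0.33. In RTN 13 of 13 were positive after mild (median 0.42; 12 of 13 and 0.17 without mild replicate 3) and 13 of 13 negative after moderate hypercapnia (median -0.39). In NTS 13 of 13 were negative after moderate hypercapnia (median -0.86), where 13.4% of all genes had an unadjusted p under 0.05. Medians over all genes in the moderate contrasts are not given here, so nothing particular to this list is read from these counts.

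Leukocyte recruitment genes were positive for 6 of 8 in VRC after mild hypercapnia (median 0.52), with the chemokine CXCL10 at 0.88 ± 0.51 and the adhesion molecule ICAM1 at -0.27 ± 0.39. Of 14 tested ligands and partners of the members, 10 were positive (median 0.23), with the kinase JAK1 at -0.12 ± 0.13 and the lectin LGALS1 at 0.29 ± 0.22. The medians without mild replicate 3 were 0.24 (6 of 8) and 0.04 (8 of 14), and CXCL10 stood at 0.58 ± 0.51. No gene of any list was called by edgeR in any of the 12 contrasts between conditions, with or without that replicate.

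Markers of other cells moved with the members in VRC mild replicate 3. Its summed antigen presentation level was 1862 CPM, where the 6 room air libraries held 323 to 771 CPM. Border macrophage and monocyte markers summed to 247 CPM (room air 38.7 to 66.2), cytotoxic lymphocyte markers to 42.9 CPM (3.92 to 15.5), and B and plasma cell markers to 71.8 CPM (31.3 to 46.4). PLAC8, of the monocyte list, held 81.9 CPM there, against 4.97 to 33.3 CPM in the other mild libraries. The 15 pan-leukocyte genes summed to 1171 CPM (room air 353 to 739) and the 12 microglia genes to 834 CPM (357 to 826). Red cell and platelet markers summed to 8.11 CPM (3.38 to 6.33), endothelial markers to 1012 CPM (586 to 913) and meningeal and fibroblast markers to 140 CPM (92.7 to 199). Their part in the differences of the members was not tested.

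Across the whole VRC mild group, the fitted log2 fold changes were positive for 15 of 15 pan-leukocyte genes (median 0.51; LAPTM5 0.42 ± 0.23, CORO1A 0.28 ± 0.15), 12 of 12 microglia genes (0.31; CSF1R 0.29 ± 0.21, C1QC 0.30 ± 0.30) and 5 of 5 border macrophage genes tested (1.09; PLAC8 1.64 ± 0.60, VCAN 0.13 ± 0.18). They were positive for 6 of 8 B cell genes (0.20; CD22 0.45 ± 0.25), 7 of 10 endothelial genes (0.10; CLDN5 -0.01 ± 0.21, KDR 0.08 ± 0.14) and 6 of 9 meningeal genes (0.21; DCN 0.49 ± 0.20, COL1A2 0.21 ± 0.47). Neutrophil and mast cell markers were positive for 2 of 3 (0.05; KIT 0.05 ± 0.28, ELANE 0.37 ± 0.47), red cell and platelet markers for 1 of 2 (0.22; ITGA2B 0.44 ± 0.30, AHSP 0.00 ± 0.35), and choroid plexus and ependymal markers for 2 of 3 (0.58; TTR -0.52 ± 0.50, CCDC153 0.78 ± 0.29). Neuron markers were positive for 3 of 10 (-0.10; NEFL 0.07 ± 0.26, SNAP25 -0.12 ± 0.21), astrocyte markers for 2 of 8 (-0.21; GFAP -0.41 ± 0.26, S100B 0.06 ± 0.17) and oligodendrocyte markers for 5 of 7 (0.09; CNP -0.19 ± 0.14).

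The leukocyte lists of VRC had lower medians without mild replicate 3: 13 of 15 pan-leukocyte genes were positive (median 0.20), 12 of 12 microglia genes (0.25), 3 of 5 border macrophage genes (0.12; PLAC8 0.83 ± 0.52) and 5 of 8 B cell genes (0.16). Endothelial genes were then positive for 5 of 10 (0.01), meningeal genes for 4 of 9 (-0.03), neutrophil and mast cell markers for 2 of 3 (0.07), red cell and platelet markers for 2 of 2 (0.19) and choroid plexus and ependymal markers for 2 of 3 (0.30). Neuron markers were positive for 1 of 10 (-0.10), astrocyte markers for 3 of 8 (-0.09) and oligodendrocyte markers for 5 of 7 (0.09). The member median in the same fit was 1.02.

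In the deposited annotation CD3D and CD3E lie on goat chromosome 15, CD4 on 5, LCK on 2, PTPRC on 16, CD2 on 3, CD5 on 29, GPR18 on 12, IL20RB on 1 and TNFSF15 on 8.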

How the data were processed

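The authors deposited 1 table for 72 libraries, with counts that are whole, unnormalised read numbers per gene and RPKM values beside them, and a gene length in bases (other). Per the submitters' processing notes FastQC, Trimmomatic, STAR, featureCounts and edgeR were used, and per the labels' protocols total RNA was made into libraries with a low-input kit. For versions, genome build and strand setting: not given in the sources used here. All 72 count columns were used. Deposited spans were shorter than the gene length for 89.7% of genes, so positions are given by chromosome only.

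Each region's 18 libraries were fitted with edgeR 4.0.16 (R 4.3.3; quasi-likelihood test in its older form, TMM factors; genes kept by filterByExpr at its minimum count of 10), and p-values were adjusted by Benjamini-Hochberg over all genes tested, with a threshold of 0.05. A 24-library fit compared regions in room air, and a 72-library fit gave the interactions. DESeq2 1.42.0 and limma 3.58.1 (voom with quality weights) served as alternatives, with RLE factors, no filter, the replicate number as a block and each library left out in turn. The newer quasi-likelihood form, the gene lists without mild replicate 3 and the pairs of regions with the block are additions made with the data in view. The scripts were tested on simulated data. RPKM was used only to compare levels between genes. A pseudocount of 0.5 was added to CPM before logs in correlations.

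The members and gene lists were chosen with earlier results of these data known. Named genes were all 10 members and, from each list with no called gene, the 2 of highest mean CPM, of which some are not reported here; CD3G is named through likeness. HLA-DRA, CD74 and like genes belong to multigene families, whose reads may be shared. All 10 members were also found by symbol in the RefSeq gene table, which was used for no value. The lowest chi-square per degree of freedom between libraries of a group was 14.24, so none was taken as a duplicate. The regions share animals, which the fit without the block does not model. Where nothing says that libraries come from separate animals within a region, p-values measure only the spread between these samples. Depth limits the low members most.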

Additional observations from a re-analysis of the deposited data

Results flagged for a closer look

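In 13 of 120 groups of 6 libraries (10 genes, 12 groups) 1 library lay apart from the other 5 by a gap above Dixon's 95% critical value. Chance gives such a gap in about 1 of 20 groups where values are normally distributed. CPM on a linear scale at low counts need not be, and the genes share libraries, so no excess is read from the 13. Of the 13, 12 were the highest library, 5 were mild replicate 3, and 6 were in VRC, 4 in mPFC, 3 in NTS and 0 in RTN.

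In VRC mild replicate 3, CD3D held 8.35 CPM (next library 2.77), CD4 17.7 CPM (4.19), LCK 25.9 CPM (14.0) and CD2 11.9 CPM (3.43). The same replicate of mPFC held 23.4 CPM of PTPRC (next 10.8).

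In NTS, mild replicate 5 held 5.12 CPM of CD3D (next 2.19), room air replicate 5 held 11.2 CPM of CD3E (5.88) and mild replicate 2 held 4.40 CPM of GPR18 (1.66). In mPFC, room air replicate 4 held 4.86 CPM of CD2 (next 1.86), mild replicate 5 held 2.80 CPM of IL20RB (0.872) and moderate replicate 6 held 2.10 CPM of IL20RB (0.625).

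In VRC room air, replicate 6 was low for GPR18 at 1.01 CPM (next 1.63), and replicate 4 was high for TNFSF15 at 1.32 CPM (next 0.436).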

How the results depend on the processing

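Of the single-gene fold changes with an unadjusted p under 0.05 in the main fit, none was recorded with a changed sign under any alternative run. The counts, the medians and the F-tests among regions were not checked for direction. Of the counts of called members and the medians, 587 alternative values stayed within the limits set for a like result and 10 moved. Of single-gene values 837 did so and 16 came past the threshold. For single genes the limit was only the same sign and the same side of the threshold, so stable sizes are not shown by it. CD4 in VRC after mild hypercapnia counted as alike, although its log2 fold change fell from 2.29 to 1.14 without mild replicate 3. DESeq2 called 2 members in VRC mild against room air, 3 in VRC moderate against mild and 3 in RTN mild against room air, and limma-voom with quality weights called 1 in RTN mild against room air, each against 0 by edgeR. The shares of all genes called by DESeq2 and limma are not given here, so nothing about the members is read from these counts. That limma fit gave a member median of -0.66 for NTS moderate against mild, in place of -1.08.

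With each library left out in turn, the member median ranged from 1.02 (without mild replicate 3) to 2.05 for VRC mild against room air, from 0.47 to 0.94 (without room air replicate 1) for RTN mild against room air, and from 0.17 to 0.49 (without room air replicate 1) for RTN moderate against room air. The members called in RTN mild against room air ranged from 0 to 1.

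The replicate block raised the members called among regions in room air from 4 to 7, and by pair of regions from 4 to 5 for VRC against mPFC, 3 to 6 for RTN against mPFC, 3 to 4 for VRC against NTS and 0 to 2 for RTN against VRC. Libraries of 1 number and condition in different regions had median correlations of 0.27 (room air), 0.256 (mild) and 0.214 (moderate), and those of 1 number in different conditions of a region 0.0204, so numbers were not taken to pair conditions. In the contrasts between conditions and the interactions the block changed no call. Low counts limit CD2, IL20RB, TNFSF15 and CD3D most.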
